A study of Mus musculus with 4 samples.

Results

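The genes described here encode the machinery that copies DNA and the enzymes that supply its building blocks. They were chosen by name, as 57 gene symbols, and all 57 had a row among the 28141 genes of the expression table. All 57 also passed the filter on low values, a deposited score of 1 or higher in 2 libraries, and were tested among 15527 genes. The polyadenylated RNA came from leukaemia cells of C57BL/6 mouse bone marrow, labelled LSCs, an abbreviation that the labels do not explain. The groups were 2 libraries with the genotype label LSCs-WT (here WT) and 2 with the label LSCs-YBX1cKO (here cKO), in which Ybx1 was conditionally knocked out. The protein made by Ybx1 has a cold-shock domain and can bind both RNA and DNA. The series title places the cells in chronic myeloid leukaemia, and the comparison asks which transcripts differ when Ybx1 is removed from them. The driver of the leukaemia, the Cre line, the age of the mice and whether each library came from its own animal are not stated in the sources used here. The p-values therefore rest on the spread among these 4 samples alone, and that spread may be technical.

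Levels are given as log2 values, obtained by multiplying the deposited log-scale scores by 0.693. That factor was inferred from the noise between replicates, on the unproven assumption that replicates differ by little more than counting noise. Were the scores plain log2, log2 differences below, except those of levels per exon length, would be 1.44 times as large with unchanged p-values. A log2 fold change is the cKO level minus the WT level, and a gene was called where its limma p, adjusted over all 15527 genes, lay under 0.05. Depth is unknown, since the table holds no counts. In these bulk samples, fewer cells of a type and less RNA per cell cannot be told apart.

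As background, a cell prepares for replication by loading the ring-shaped MCM2-7 helicase onto origins, which the origin recognition complex marks with the help of Cdc6 and Cdt1. In S phase, Cdc45 and the GINS complex join the ring and switch it on, DNA polymerase alpha-primase lays down primers, and polymerases delta and epsilon extend them on the Pcna clamp. Ribonucleotide reductase, thymidylate synthase and thymidine kinase supply the deoxynucleotides. Many of these genes are transcribed as cells enter S phase, under E2F transcription factors, and marrow progenitors and leukaemia cells that divide express them at high levels.

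As a check of the labels, Ybx1 stood at 9.31 and 9.41 in WT, against 8.19 and 8.13 in cKO, lower in both cKO libraries. The fall was 2.29-fold (log2 fold change -1.20, SE 0.08), so Ybx1 reads remained in cKO, and the deleted exons are not stated in the sources used here. The progenitor markers Kit, Cd34, Flt3, Meis1, Hlf, Mpo and Elane have no row in the table used here, so the labelled cell type could not be checked on them. Of the 3 stem and progenitor markers tested, Gata2, Mecom and Prtn3, 2 were lower in cKO and 1 did not pass.

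Most of these genes were lower in the cKO libraries. Of the 57 genes, 51 fell, 0 rose and 6 did not pass the test, where 17.8% of all tested genes fell, 19.5% rose and 37.4% changed in either direction. Both cKO libraries lay below both WT libraries for 53 of the 57, against 32.4% of all tested genes. The median log2 fold change was -0.80, or 1.74-fold lower, and the median over all tested genes was 0.00. A fall of at least 1 on the log2 scale was called for 20 of the 57, against 3.1% of all tested genes. That count depends on the inferred scale: read as plain log2, 31 of the 57 passed this size, against 5.81% of all tested genes, and the median fall was 2.23-fold. Another 19 fell by between 0.5 and 1, and 12 by less than 0.5. Summed after back-transformation, the 57 genes made up 5577 and 5630 per 1000000 of the library's summed level in WT and 3032 and 3101 in cKO, or 2503 and 2543 against 960 and 986 if read as plain log2. The summed level was thus lower in both cKO libraries, and the replicates of each group differed far less than the groups.

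Markers of dividing cells fell with these genes, whereas markers of mature cells moved in both directions. Each of 15 listed mitotic genes was lower (median -1.20), and their summed level was 1469 and 1427 per 1000000 in WT and 602 and 599 in cKO. The neutrophil list of 11 genes had rows for 4, with 3 rises, 1 fall and a summed level of 396 and 431 per 1000000 in WT and 1147 and 1154 in cKO, most of it from Mmp9 and Mmp8; Ltf, Camp, Ngp, S100a8, S100a9, Ly6g and Retnlg have no row in the table used here. Among monocyte and macrophage genes, 5 of the 6 tested rose and 0 fell, with a summed level of 6654 and 6765 per 1000000 in WT and 10585 and 10619 in cKO. Most of that difference was the lysozyme gene Lyz2, and without it the sum was 5531 and 5632 in WT and 5647 and 5738 in cKO. Most of that remainder was Adgre1, at 5165 and 5264 in WT and 5050 and 5138 in cKO. Its log2 level rose by 0.09, but its share was lower because the cKO libraries had a larger summed level. Cd14, Cd68 and Ccr2 rose in both measures, Cd14 from 65.3 and 69.9 in WT to 137 and 141 in cKO, and Csf1r did not pass. The 3 T and NK cell markers with a row all fell, from 155 and 157 to 61.1 and 66.3 per 1000000, and of 4 erythroid markers 3 fell, from 197 and 189 to 141 and 132. Of 8 megakaryocyte markers 2 rose and 2 fell, of 5 tested stromal markers 1 fell, and the 1 B cell marker with a row rose. The part of these changes in the fall of the replication genes was not tested.

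**Figure D1:**
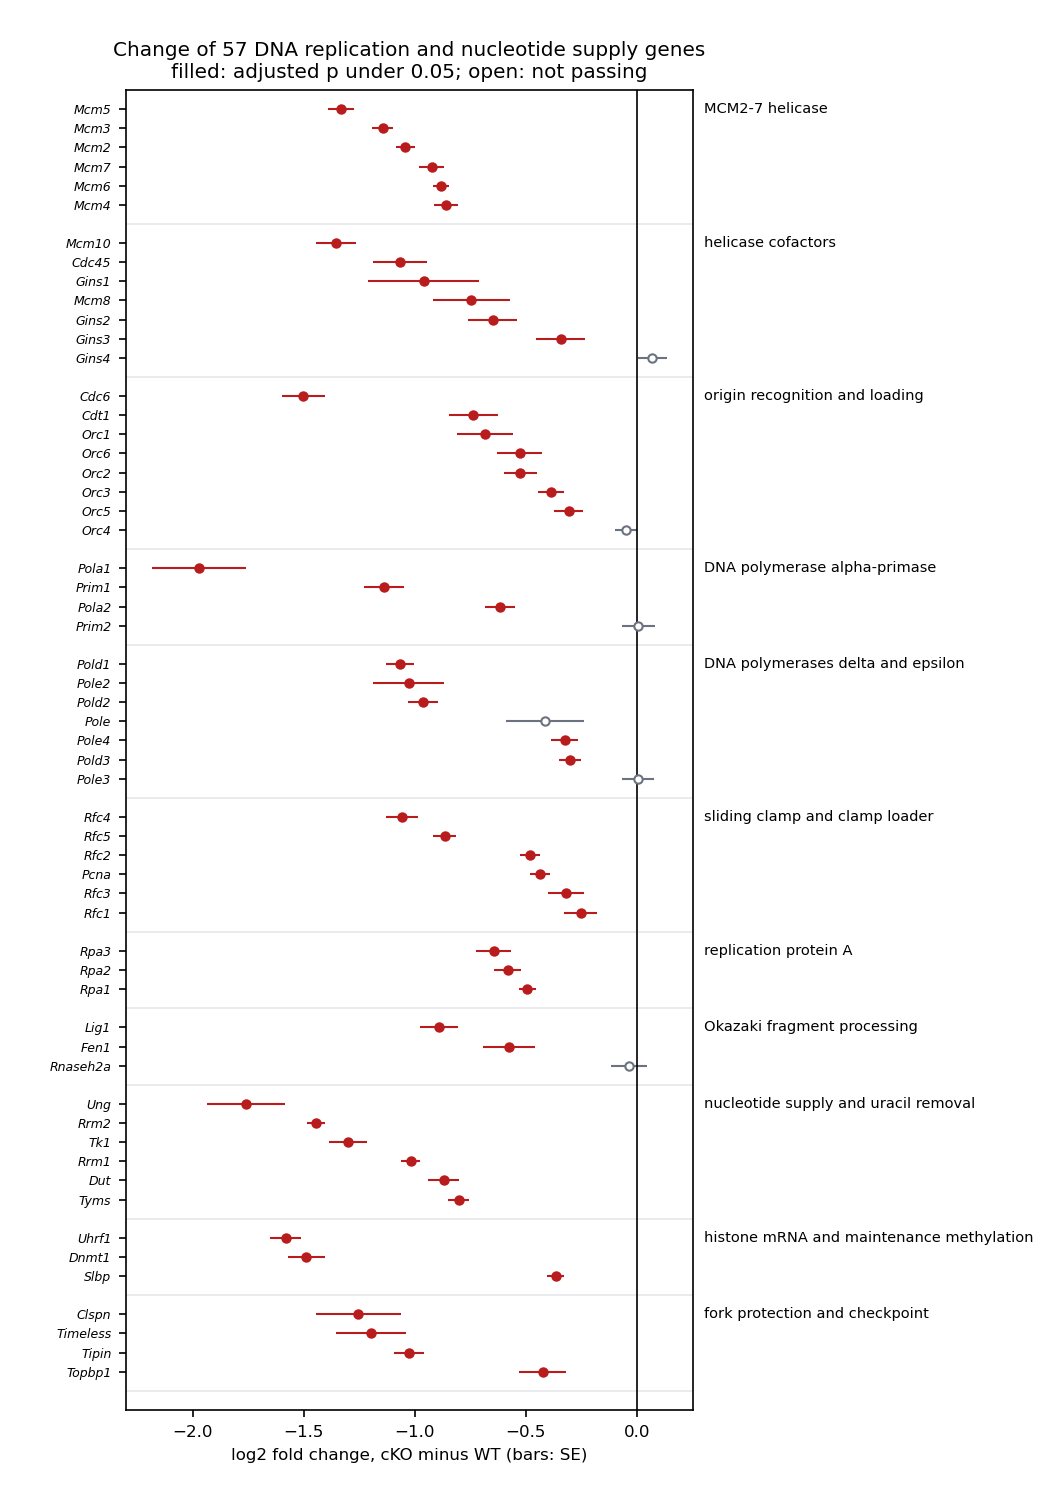
Log2 fold change (cKO minus WT, horizontal axis) of each of the 57 genes, grouped by role, with bars for the SE from limma. The filled points are the 51 genes that fell, the open points the 6 that did not pass, and no gene lies to the right of 0 by more than 0.07.

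Low and high transcripts were among the 57. Their mean log2 level in WT, not corrected for length, ran from 5.86 for Gins1 to 12.26 for Rrm2, and across the 57 genes the fold change had little relation to that level (Pearson r = 0.09, Spearman rho = 0.06, a description over genes that share the same 4 libraries). Replicates lay close together, with a median difference of 0.05 between the WT libraries and 0.09 between the cKO libraries. The largest differences between replicates were 0.33 in WT and 0.46 in cKO. The level was lower in cKO replicate 1 than in cKO replicate 2 for 36 of the 57. When the prior variance was not allowed to follow the expression level, 36 of the 51 falls kept their call, against 7.02% of all tested genes called lower in that fit. The 15 that lost it were Gins3, Orc3, Orc5, Orc6, Cdt1, Pola2, Pold3, Pole4, Pcna, Rfc1, Rfc3, Rpa3, Fen1, Slbp and Topbp1.

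Promoter sequences from RefSeq (GRCm38.p6), running from 250 bases before to 50 bases after the start site, were found for 49 of the 57 genes, in 61 entries. Of these entries 35 (57.4%) held an E2F-like motif, searched on both strands, where 9.57% of all 32851 promoters and 15.7% of the 13462 promoters of tested genes held one. The letters searched were TTGGCGC for one form, TTCGCGC for another, and also TTCCCGC as well as TTGCCGC. The Y-box core CCAAT, the element after which the Y-box proteins are named, was in 33 of the 61 (54.1%), in 37.4% of all promoters and in 37.8% of those of tested genes. The CHR-like letters TTTGAA or TTTAAA were in 12 of the 61 (19.7%), in 27.6% of all promoters and in 20.6% of those of tested genes. Median GC content was 61.3% in the 61 entries, 52.7% in all promoters and 59.7% in promoters of tested genes. Of the 55 E2F-like matches, 14 overlapped another E2F-like match and 5 overlapped a CCAAT match. A match is a run of letters and does not show that a protein binds there.

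Genes with and without a motif had close medians. The median log2 fold change was -0.88 for the 31 genes with an E2F-like match and -0.83 for the 18 without, and -0.88 for the 29 with CCAAT and -0.83 for the 20 without. Promoters are shown for 3 helicase genes, for the largest fall, Pola1, and for Rrm2, a subunit of ribonucleotide reductase. A pair that did not pass, Pole3 and Rnaseh2a, follows. They are examples and do not stand for all genes that fell or did not pass. Among genes with an entry, an E2F-like match was in 29 of the 46 that fell and in 2 of the 3 that did not pass. Capitals mark E2F-like and CCAAT matches on either strand.
Mcm3, chr1:20820263-20820562, minus strand: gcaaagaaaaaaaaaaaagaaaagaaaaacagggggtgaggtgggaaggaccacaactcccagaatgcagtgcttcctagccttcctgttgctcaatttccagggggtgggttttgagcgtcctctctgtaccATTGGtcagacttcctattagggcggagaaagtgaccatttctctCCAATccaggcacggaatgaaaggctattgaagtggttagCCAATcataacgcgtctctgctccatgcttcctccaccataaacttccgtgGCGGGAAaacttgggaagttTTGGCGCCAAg
Mcm5, chr8:75109259-75109558, plus strand: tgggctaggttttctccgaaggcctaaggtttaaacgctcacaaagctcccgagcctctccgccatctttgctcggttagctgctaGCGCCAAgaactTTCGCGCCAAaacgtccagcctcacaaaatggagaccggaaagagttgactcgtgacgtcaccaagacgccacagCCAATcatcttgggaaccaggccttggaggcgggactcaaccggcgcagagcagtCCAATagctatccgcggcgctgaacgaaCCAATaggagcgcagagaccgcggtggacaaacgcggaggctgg
Mcm6, chr1:128359656-128359955, minus strand: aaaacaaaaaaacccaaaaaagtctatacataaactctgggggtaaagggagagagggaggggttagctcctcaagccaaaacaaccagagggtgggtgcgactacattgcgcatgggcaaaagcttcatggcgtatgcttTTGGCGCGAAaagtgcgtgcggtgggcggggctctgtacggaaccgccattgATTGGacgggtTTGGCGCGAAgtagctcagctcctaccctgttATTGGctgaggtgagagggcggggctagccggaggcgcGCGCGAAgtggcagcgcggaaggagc
Pola1, chrX:93632106-93632405, minus strand: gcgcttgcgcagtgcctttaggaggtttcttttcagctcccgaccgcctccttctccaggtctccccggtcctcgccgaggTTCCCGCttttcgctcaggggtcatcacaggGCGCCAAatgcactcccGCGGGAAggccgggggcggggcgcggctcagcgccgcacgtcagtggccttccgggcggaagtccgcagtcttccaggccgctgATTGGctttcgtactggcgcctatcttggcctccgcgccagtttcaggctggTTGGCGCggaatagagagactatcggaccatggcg
Rrm2, chr12:24708004-24708303, plus strand: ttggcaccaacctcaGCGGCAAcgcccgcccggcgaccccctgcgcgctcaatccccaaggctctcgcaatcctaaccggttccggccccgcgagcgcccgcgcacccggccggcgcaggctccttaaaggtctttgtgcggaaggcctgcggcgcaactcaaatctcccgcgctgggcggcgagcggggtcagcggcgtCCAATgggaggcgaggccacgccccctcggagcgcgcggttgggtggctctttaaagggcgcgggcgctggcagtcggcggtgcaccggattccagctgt
Pole3, chr4:62524965-62525264, minus strand: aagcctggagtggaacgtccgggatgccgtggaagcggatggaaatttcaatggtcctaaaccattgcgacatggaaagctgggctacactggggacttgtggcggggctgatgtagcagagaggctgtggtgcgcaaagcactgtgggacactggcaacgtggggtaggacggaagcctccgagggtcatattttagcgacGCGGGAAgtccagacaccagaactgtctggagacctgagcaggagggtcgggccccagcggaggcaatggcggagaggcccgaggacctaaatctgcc
Rnaseh2a, chr8:84966027-84966326, minus strand: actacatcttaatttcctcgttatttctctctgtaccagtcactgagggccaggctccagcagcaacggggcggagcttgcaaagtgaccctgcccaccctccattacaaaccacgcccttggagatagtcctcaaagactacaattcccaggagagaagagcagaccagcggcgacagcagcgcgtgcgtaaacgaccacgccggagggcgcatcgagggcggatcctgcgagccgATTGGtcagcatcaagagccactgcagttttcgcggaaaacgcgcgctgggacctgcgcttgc
Mcm6 held 5 E2F-like and 2 CCAAT matches, Mcm3 and Mcm5 each 3 of both kinds, and Pola1 4 E2F-like matches and 1 CCAAT. Rrm2 held 1 of each, Pole3 only an E2F-like match and Rnaseh2a only CCAAT. Ung, which fell strongly, held neither in its promoter entry, nor did Tk1, Tyms, Dut and Rfc5, which also fell. Mcm2, another helicase gene that fell, held 1 CCAAT match and no E2F-like match.

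The 6 genes of the MCM2-7 ring, the motor that unwinds DNA ahead of the fork, all fell, with a median of -0.98. Mcm5 had the largest fall of the ring: it stood at 10.57 and 10.66 in WT, against 9.22 and 9.35 in cKO, a log2 fold change of -1.33 (SE 0.06, limma adjusted p = 4.4e-15). Mcm3 stood at 11.40 and 11.38 in WT, against 10.20 and 10.29 in cKO (log2 fold change -1.15, SE 0.05). Both genes, and also Mcm2, had every cKO value more than 1 unit below every WT value. Mcm2 stood at 11.40 in both WT libraries, against 10.37 and 10.35 in cKO (log2 fold change -1.04, SE 0.04). Mcm7 was at 10.39 and 10.36 in WT, against 9.45 and 9.46 in cKO (log2 fold change -0.92, SE 0.06). Reads of Mcm7 could be split with the processed pseudogene Gm5487, which is 97.7% identical over 2157 bases. Mcm6 was at 11.92 and 11.88 in WT, against 11.02 in both cKO libraries (log2 fold change -0.88, SE 0.04). Mcm4 was at 11.11 and 11.22 in WT, against 10.21 and 10.40 in cKO (log2 fold change -0.86, SE 0.05). No gene of the ring had overlapping groups, and the smallest fall, that of Mcm4, was 1.81-fold. The summed level of the ring was 1287 and 1307 per 1000000 in WT and 583 and 604 in cKO.

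**Figure D2:**
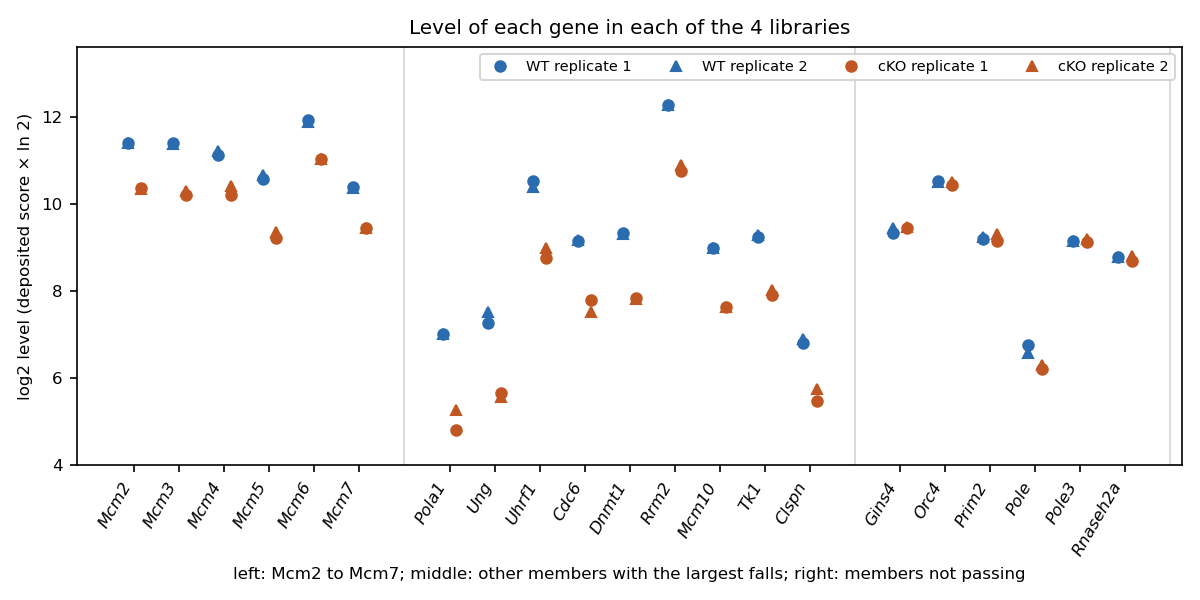
Log2 level (vertical axis) in each of the 4 libraries for Mcm2 to Mcm7, for the other genes with the largest falls and for the 6 genes that did not pass. WT is blue and cKO orange, with circles for replicate 1 and triangles for replicate 2, and the cKO points of Rrm2 near 10.8 lie below its WT points at 12.26 while those of Gins4, Prim2, Pole3 and Rnaseh2a overlap the WT points.

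Among 7 genes, the factors that activate the ring together with Mcm8, 6 fell and Gins4 did not pass. Mcm10, which is needed to start unwinding, stood at 8.98 and 8.99 in WT, against 7.63 and 7.64 in cKO, with near-identical replicates (log2 fold change -1.35, SE 0.09, limma adjusted p = 1.1e-11). Cdc45, the helicase partner loaded at firing, fell by 1.07 (SE 0.12), and Mcm8, an MCM relative that acts in recombination, by 0.75 (SE 0.17). The 4 GINS subunits differed among themselves: Gins1 fell by 0.96 (SE 0.25), Gins2 by 0.65 (SE 0.11) and Gins3 by 0.34 (SE 0.11), while Gins4 stood at 9.33 and 9.45 in WT, against 9.45 and 9.47 in cKO (log2 fold change 0.07 with SE 0.07, limma adjusted p = 0.46). The call of Gins1 was lost without WT replicate 2 (limma adjusted p = 0.089). Gins3 lost its call without WT replicate 1 (limma adjusted p = 0.18) and without cKO replicate 2 (limma adjusted p = 0.14). Of the exon bases of Gins2, 70.7% are shared with Gse1 on the opposite strand, which did not pass (log2 fold change -0.74, SE 0.29). Strand use in counting was not given, and without it their reads cannot be told apart.

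At origins, 7 of 8 genes fell, with a median of -0.53. Cdc6, the ATPase that helps load the ring, moved most: it was at 9.14 and 9.18 in WT, against 7.78 and 7.53 in cKO, 2.83-fold lower (log2 fold change -1.50, SE 0.10, limma adjusted p = 4.8e-12). Its loading partner Cdt1 fell by 0.74 (SE 0.11). Of the origin recognition complex, Orc1 fell by 0.68 (SE 0.13), Orc6 by 0.53 (SE 0.10), Orc2 by 0.52 (SE 0.08), Orc3 by 0.39 (SE 0.06) and Orc5 by 0.31 (SE 0.06). Orc4 stood at 10.51 in both WT libraries, against 10.43 and 10.49 in cKO (log2 fold change -0.05, SE 0.05, limma adjusted p = 0.48). Its cKO values lay below its WT values by very little, and under a shift of all libraries to 1 median its difference turned to 0.01. Orc2 shares 24.0% of its exon bases with Nif3l1 on the opposite strand, which had a log2 fold change of -0.02 (SE 0.07).

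The polymerase alpha-primase complex, which starts each new strand, held the largest fall of the 57 genes and also a subunit that did not pass. Pola1, the catalytic polymerase subunit on chromosome X from 93304767 to 93632155, stood at 7.01 and 6.9996 in WT, against 4.80 and 5.26 in cKO, 3.93-fold lower (log2 fold change -1.97, SE 0.21, limma adjusted p = 3.8e-08). Its cKO replicates differed by 0.46, the widest gap between replicates among the 57 genes, but both lay far below WT. Prim1, the catalytic primase subunit, fell by 1.14 (SE 0.09), and Pola2, the regulatory polymerase subunit, by 0.61 (SE 0.07). Prim2, the large primase subunit, was at 9.20 and 9.24 in WT, against 9.14 and 9.32 in cKO, so its groups overlapped (log2 fold change 0.01, SE 0.07, limma adjusted p = 0.96). Within each library, the log2 level of Pola1 minus that of Prim2 was -2.19 and -2.24 in WT and -4.34 and -4.05 in cKO. The genes of this complex thus changed unequally within the same libraries, although an exact two-sided permutation test of 2 against 2 samples cannot go below p = 0.333.

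The replicative polymerases showed the same kind of unequal change. Of the polymerase delta genes, the catalytic subunit Pold1 fell by 1.07 (SE 0.06), Pold2 by 0.96 (SE 0.07) and Pold3 by 0.30 (SE 0.05). Of the polymerase epsilon genes, Pole2 fell by 1.03 (SE 0.16) and Pole4, a histone-fold subunit, by 0.32 (SE 0.06). Pole, the catalytic subunit, stood at 6.76 and 6.57 in WT, against 6.21 and 6.29 in cKO (log2 fold change -0.41, SE 0.18, limma adjusted p = 0.07). Its groups did not overlap, but at this low level the SE was wide and the test was not passed at 0.05, only at 0.10. Pole3, the histone-fold partner of Pole4, was at 9.14 in both WT libraries, against 9.11 and 9.19 in cKO (log2 fold change 0.01, SE 0.07, limma adjusted p = 0.96). Pole3 thus lay between the cKO values in both WT libraries. Within each library Pole2 minus Pole3 was -1.92 and -1.87 in WT and -2.95 and -2.91 in cKO.

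The clamp, its loader and the single-strand binding proteins fell in all 9 cases. Pcna, the ring that tethers polymerases to DNA, was at 11.19 and 11.28 in WT, against 10.81 and 10.79 in cKO (log2 fold change -0.44, SE 0.04, limma adjusted p = 1.2e-08). Its processed pseudogene Pcna-ps2, 99.2% identical over 781 bases, has its own row and fell by 0.31 (SE 0.07), so reads could be split between them. Of the clamp loader subunits, Rfc4 fell by 1.06 (SE 0.07) and Rfc5 by 0.87 (SE 0.05), Rfc2 by 0.48 (SE 0.05), Rfc3 by 0.32 (SE 0.08) and Rfc1, the large subunit, by 0.25 (SE 0.07). The call of Rfc1 was lost without WT replicate 1 (limma adjusted p = 0.19) and without cKO replicate 1 (limma adjusted p = 0.052). The 3 subunits of replication protein A, which coats single-stranded DNA, fell by much the same amount: Rpa3 by 0.64 (SE 0.08), Rpa2 by 0.58 (SE 0.06) and Rpa1 by 0.49 (SE 0.04). On the lagging strand, the DNA ligase gene Lig1 fell by 0.89 (SE 0.09) and the flap nuclease gene Fen1 by 0.57 (SE 0.12). For Fen1, 78.8% of the exon bases are shared with the antisense gene Gm10143, which did not pass (log2 fold change -0.68, SE 0.30). Rnaseh2a, the catalytic subunit of the enzyme that removes ribonucleotides from DNA, was at 8.79 and 8.77 in WT, against 8.68 and 8.81 in cKO (log2 fold change -0.03, SE 0.08, limma adjusted p = 0.80), with WT values inside the cKO range.

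All 6 genes listed for nucleotide supply and uracil removal fell, with a median of -1.16. Rrm2, the small subunit of ribonucleotide reductase, lies on chromosome 12 from 24708241 to 24714146. It stood at 12.26 in both WT libraries, against 10.75 and 10.88 in cKO (log2 fold change -1.44 with SE 0.04, limma adjusted p = 7.5e-19). The large subunit Rrm1 fell by 1.02 (SE 0.04), and within each library Rrm2 minus Rrm1 was 0.82 and 0.81 in WT and 0.32 and 0.45 in cKO. The small subunit thus fell by more than the large one. The processed pseudogene Gm48455 is 95.5% identical to Rrm2 over 419 bases. Tk1, the S phase thymidine kinase, was at 9.24 and 9.29 in WT, against 7.90 and 8.03 in cKO (log2 fold change -1.30, SE 0.09, limma adjusted p = 6.7e-12). Tyms, thymidylate synthase, fell by 0.80 (SE 0.05), and Dut, which destroys dUTP, by 0.87 (SE 0.07). Ung, the glycosylase that removes uracil from DNA, was at 7.26 and 7.51 in WT, against 5.66 and 5.57 in cKO, 3.39-fold lower (log2 fold change -1.76, SE 0.17, limma adjusted p = 1.1e-08). Dut and Ung, which both keep uracil out of DNA, were thus lower in both cKO libraries. The summed level of the 6 genes was 1017 and 1028 per 1000000 in WT and 418 and 427 in cKO.

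Genes that restore DNA methylation behind the fork had some of the largest falls. Uhrf1, which recognises half-methylated DNA, was at 10.52 and 10.39 in WT, against 8.77 and 8.98 in cKO, 2.99-fold lower (log2 fold change -1.58, SE 0.07, limma adjusted p = 4.2e-15). Dnmt1, the maintenance methyltransferase that Uhrf1 recruits, was at 9.34 and 9.30 in WT, against 7.84 and 7.82 in cKO, 2.81-fold lower (log2 fold change -1.49 with SE 0.08, limma adjusted p = 4.1e-13). The partners in this step fell by close amounts and neither had overlapping groups. Reads of Uhrf1 could be split with the processed pseudogene Gm5648, 98.3% identical over 1590 bases. Slbp, which binds histone messenger RNA, fell by 0.36 (SE 0.04), and within each library Dnmt1 minus Slbp was -2.39 and -2.38 in WT and -3.46 and -3.56 in cKO. Of the genes that guard the fork, Clspn, the adaptor of the replication checkpoint, was at 6.82 and 6.89 in WT, against 5.46 and 5.74 in cKO (log2 fold change -1.25 with SE 0.19, limma adjusted p = 8.3e-06). The fork protection partners Timeless and Tipin fell by 1.20 (SE 0.16) and 1.03 (SE 0.07), and Topbp1, which activates the checkpoint kinase, by 0.42 (SE 0.11).

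**Figure D3:**
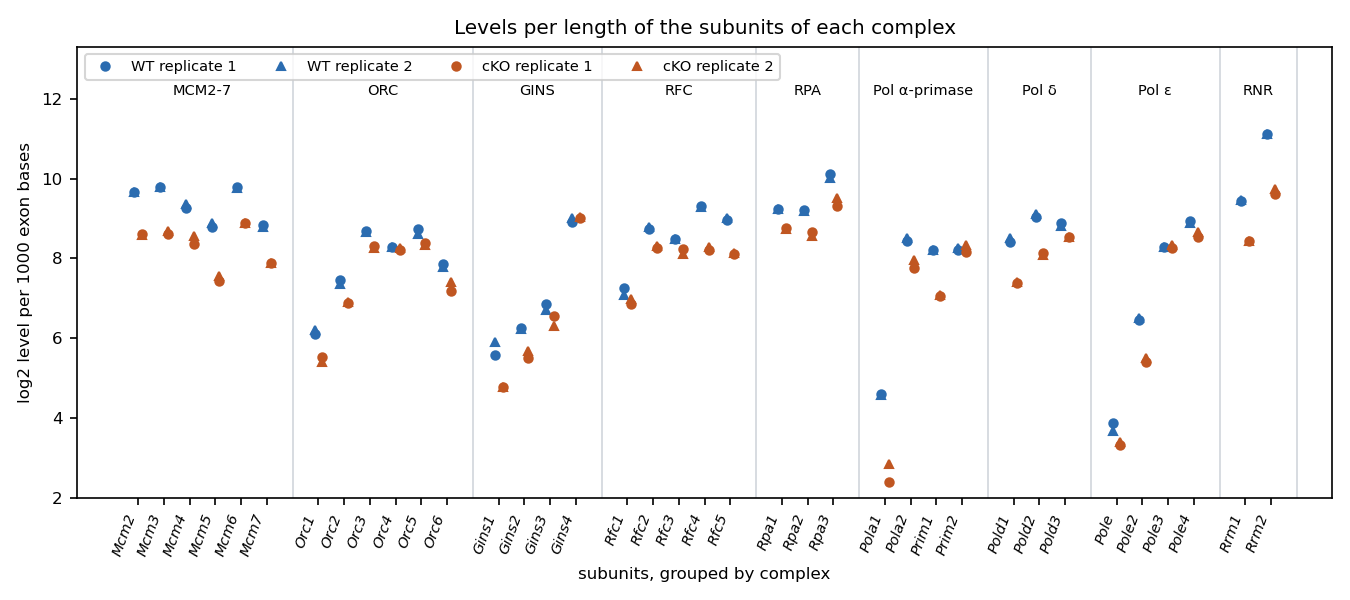
Log2 level per 1000 bases of merged exon (vertical axis) for the subunits of 9 complexes in the 4 libraries, WT in blue and cKO in orange. In WT the MCM2-7 subunits lie within 0.98 of one another, whereas those of polymerase epsilon span 5.15.

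To compare subunits with each other, levels were taken per 1000 bases of merged exon (GENCODE M21, GRCm38), and such levels rest on the inferred scale. They also assume scores not already divided by length and reads spread over all merged exons, and neither is known. The spans between subunits are therefore no measure of their relative amounts. In WT the 6 MCM2-7 genes lay within 0.98 log2 units per length, from 8.81 for Mcm7 and 8.83 for Mcm5 to 9.77 for Mcm6 and 9.79 for Mcm3. In cKO they lay within 1.40, from 7.50 for Mcm5 to 8.89 for Mcm6. Mcm5 and Mcm7, side by side in WT, were thus apart in cKO, where Mcm7 stood at 7.89. Of the polymerase delta genes, Pold1, Pold2 and Pold3 lay within 0.62 in WT and 1.15 in cKO; Pold4 was not among the 57 genes and is not in this span. Polymerase epsilon was spread far more widely, over 5.15 in WT and 5.24 in cKO, with Pole lowest at 3.77 in WT and Pole4 highest at 8.92. Polymerase alpha-primase spanned 3.88 in WT and 5.63 in cKO, with Pola1 lowest at 4.59 and 2.61. The GINS genes spanned 3.22 in WT and 4.25 in cKO, from Gins1 to Gins4, the subunit without a called change. The clamp loader went the other way: its span was 2.15 in WT and 1.37 in cKO, as Rfc4, the highest subunit in WT at 9.31, fell to 8.25. Ranges in the single libraries of each group lay close to these means, for example 1.46 and 1.33 for MCM2-7 in cKO and 1.01 and 0.99 in WT.

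Other genes of the pathway were read from lists of 69 genes, of which 68 were tested; Chtf8 lay below the filter. Of the 68, 50 fell, 9 rose and 9 did not pass, with a median of -0.54, where 17.8% of all tested genes fell and 19.5% rose. The 9 rises are thus no larger a share than that of all tested genes. Among 12 regulators of origin licensing and firing, 9 fell and 1 rose. The kinase gene Cdc7, which fires origins, was at 8.30 and 8.68 in WT, against 7.51 and 7.39 in cKO (log2 fold change -1.04, SE 0.12), and the helicase gene Recql4, which also fell, was at 5.57 and 5.53 in WT, against 4.48 and 4.62 in cKO. Mcmbp, which binds MCM proteins, rose by 0.23 (SE 0.05). Dbf4, the partner of Cdc7, did not pass (log2 fold change -0.53, SE 0.22, limma adjusted p = 0.057), nor did Mcm9 (log2 fold change -0.83, SE 0.33, limma adjusted p = 0.055).

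Among 14 tested clamp loader variants and fork factors, 10 fell and 2 rose. Atad5, which unloads Pcna, fell by 1.53 (SE 0.27) with cKO values of 4.25 and 5.16 that lay wide apart, and Dna2, a nuclease of lagging-strand ends, by 1.43 (SE 0.13). Pold4, the smallest subunit of polymerase delta, rose: it was at 6.87 and 6.71 in WT, against 7.54 and 7.45 in cKO, 1.64-fold higher (log2 fold change 0.71, SE 0.14, limma adjusted p = 0.0002). Pold4 thus moved against Pold1, Pold2 and Pold3, each of which fell. Rnaseh1 rose by 0.38 (SE 0.07), while Rnaseh2b and Rnaseh2c, the partners of Rnaseh2a, fell by 0.54 (SE 0.13) and 0.58 (SE 0.11). Of 10 genes that assemble chromatin on new DNA, 9 fell and 0 rose; the assembly factor subunit Chaf1b fell by 1.19 (SE 0.08) and the remodeller gene Hells by 1.06 (SE 0.06). Usp7 did not pass (log2 fold change 0.23, SE 0.14, limma adjusted p = 0.22).

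Of 15 purine genes 13 fell and 1 rose, with a median of -0.46. Hprt, the purine salvage enzyme, was at 10.97 in both WT libraries, against 9.28 and 9.26 in cKO, 3.25-fold lower (log2 fold change -1.70, SE 0.05, limma adjusted p = 4e-18), and Impdh2, the first step towards guanine nucleotides, fell by 0.84 (SE 0.05). Adss rose by 0.30 (SE 0.04). Of 17 genes of pyrimidine synthesis and deoxynucleotide balance 9 fell and 5 rose, with a median of -0.36. The salvage kinase gene Dck fell by 1.10 (SE 0.10) and the CTP synthase gene Ctps by 0.97 (SE 0.08), whereas its relative Ctps2 rose by 0.39 (SE 0.05). Other rises included Tk2, the mitochondrial thymidine kinase, by 0.33 (SE 0.11), Cmpk1 by 0.28 (SE 0.05) and Samhd1, which degrades deoxynucleotides, by 0.21 (SE 0.06). Under the prior variance that did not follow the level, 28 of the 68 were called lower and only Pold4 higher, so the other 8 rises rest on the variance model.

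**Figure D4:**
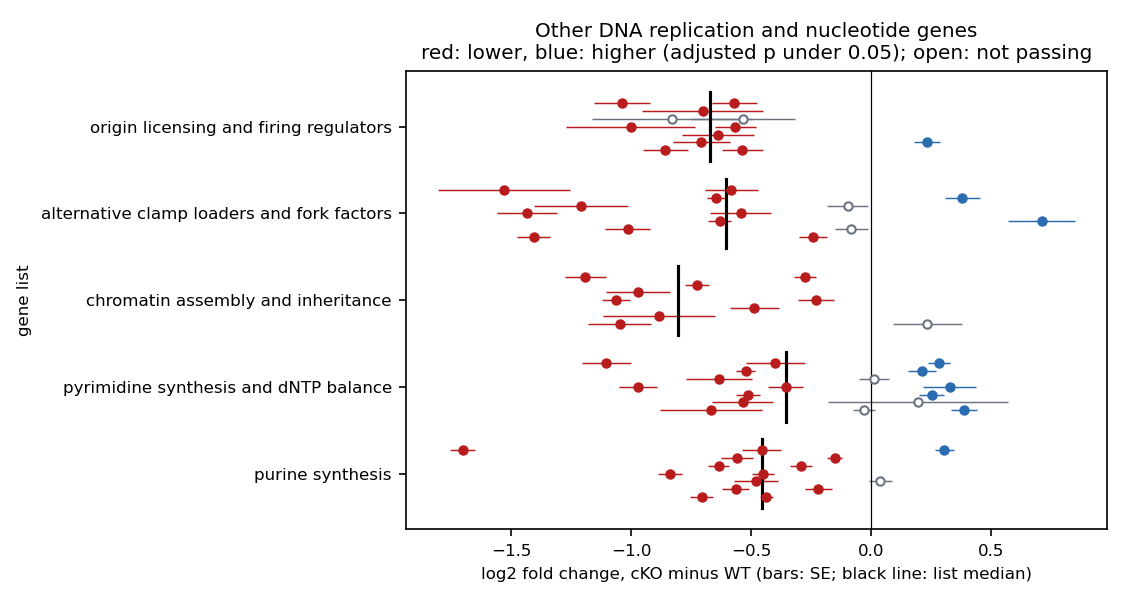
Log2 fold change (cKO minus WT, horizontal axis) of the 68 other tested genes of DNA replication and nucleotide metabolism in 5 lists, with SE bars and a black line at each list's median. Red points fell, blue points rose and open points did not pass, and the medians run from -0.81 for chromatin assembly to -0.36 for pyrimidine synthesis.

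**Figure D5:**
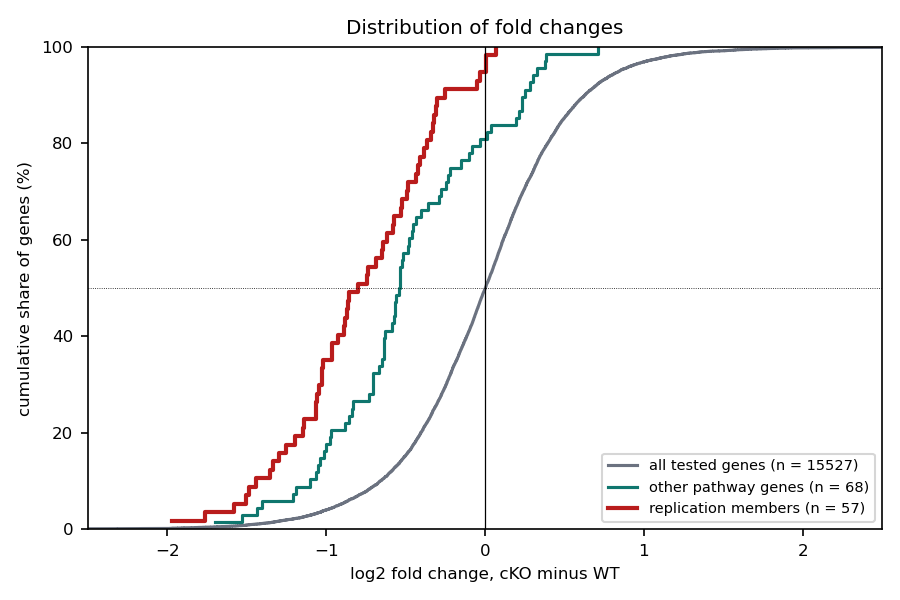
Cumulative share of genes (vertical axis, percent) by log2 fold change (horizontal axis, cKO minus WT) for all 15527 tested genes, the 68 other pathway genes and the 57 replication genes. The curve of the 57 genes crosses 50% at -0.80, that of the other pathway genes at -0.54 and that of all tested genes at 0.00.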

How the data were processed

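RNA-seq of 4 libraries was used, 2 WT and 2 Ybx1 cKO. The authors deposited 1 score per gene and library on a log scale, from -3.19 to 27.9; the sources used here give neither its transformation nor its base. CASAVA, HISAT2 2.1.0, featureCounts and DESeq2 on GRCm38 are named, without role or order, per the submitters' processing notes. Whether counting used strand was not given. Columns matched samples by title, and 0 columns were left out.

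Scores were multiplied by 0.693, that is ln(2). On that reading the noise between replicates was 1.10 times Poisson noise in WT and 1.31 times in cKO, if levels are taken as reads. As plain log2 it was 4.85 and 5.94 times. The choice assumes replicates with little biological spread and levels that are reads. Neither is known, so the noise cannot settle the scale. A gene was tested if 2 or more libraries had a deposited score of 1 or higher, with limma 3.58.1 in R 4.3.3 (mean-variance trend, two-sided, Benjamini-Hochberg over 15527 genes, threshold 0.05). The step was run on simulated data in which the spread followed the level by construction, so that run cannot judge the mean-variance trend. Alternatives were a replicate block, leaving out each library, other filters, priors, scalings and thresholds. No gene set test was run.

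Genes and lists were chosen with earlier results of these data known. Values in every library were to be named for Mcm2 to Mcm7, the 10 largest called falls, called rises and genes not passing, and for other pathway genes the 2 largest falls and every rise of each list, of which 1 is not reported here; further genes were added after their values were seen. Positions, exon lengths and overlaps came from GENCODE M21. Of the 57 genes, 20 share exon bases with another gene, 3 of them at least 20% (Fen1, Gins2, Orc2), and 6 have a pseudogene copy at 95% identity or more over at least 200 bases (Mcm7, Pcna, Rfc5, Rrm2, Slbp, Uhrf1). Python 3.11.15, pandas 2.3.3, numpy 2.4.6 and matplotlib 3.10.9 were used.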

Additional observations from a re-analysis of the deposited data

How the results depend on the processing

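Of the 57 replication genes, 0 rose in any fit of all 4 libraries. The number that fell stayed between 49 and 52 there, other than with the prior variance without trend and a fold threshold. With the prior variance without trend 36 of the 57 fell; over all genes 2267 were called (1090 lower, 1177 higher) in place of 5803, and of the other pathway genes 28 fell and 1 rose. With a fold threshold of 1 on the log2 scale, 20 of the 57 fell, and 31 on a plain log2 reading, a combination added after seeing the data; both counts are smaller by construction. Leaving out 1 library at a time, which leaves a lone sample assumed to vary like the others, gave 49 to 50 falls among the 57, 45 to 50 falls and 8 to 9 rises among the other pathway genes, and 4662 to 5803 calls over all genes. Without a filter on low values, Gins3 and Rfc1 lost their calls, and Gins3 also under quantile normalization. Of the other pathway genes 43 then fell and 6 rose; Ticrr, Atad5, Rnaseh2b, Asf1a, Mms22l, Rrm2b and Nudt1 lost their falls and Mcmbp, Tk2 and Samhd1 their rises. Tk2 lost its call without WT replicate 1 (limma adjusted p = 0.27) and without cKO replicate 1 (limma adjusted p = 0.091), and Samhd1 without WT replicate 2 (limma adjusted p = 0.052).

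The sign changed only for genes that did not pass. Leaving out single libraries, the log2 fold change ran from -0.0834 to 0.0969 for Prim2, from -0.0293 to 0.0421 for Pole3 and from -0.0959 to 0.0282 for Rnaseh2a. Rnaseh2a was at 0.00745 under quantile normalization and at 0.0286 under the median shift, and Orc4 at 0.0135 under the median shift. The cause was not tested. With the replicate number as a block, 51 of the 57 fell, and 6026 genes were called over the whole table. Each gene's own spread hardly entered that fit either, so these counts do not test the calls against it. The same-numbered libraries had deviations from their group means that correlated at 0.017 over 11629 genes. This 1 value, from 2 libraries per group, cannot show whether same-numbered samples were paired. Read as plain log2, the median of the 57 genes was -1.16.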

Other observations

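Genes that copy mitochondrial DNA were looked up for contrast, from a list written after the values of the 57 genes were known and before its own were seen. Of 13 genes with a row, 3 fell, 1 rose and 9 did not pass, with a median log2 fold change of -0.08, and 37.4% of all tested genes changed in either direction. Mgme1, a nuclease of mitochondrial DNA, fell by 0.59 (SE 0.09), Twnk, the mitochondrial helicase, by 0.22 (SE 0.06) and Ssbp1, the mitochondrial single-strand binding protein, by 0.21 (SE 0.06). Polg2, the accessory subunit of the mitochondrial polymerase, rose: it stood at 7.53 and 7.95 in WT, against 8.24 and 8.31 in cKO (log2 fold change 0.53, SE 0.12, limma adjusted p = 0.00078). Polg, its catalytic partner, did not pass (log2 fold change -0.11 with SE 0.10, limma adjusted p = 0.42). The difference between this list and the 57 nuclear replication genes was not tested.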
